A study of Mus musculus with 8 samples.

Results

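The coagulation and complement genes of liver are 42 genes that encode plasma proteins, their cofactors, regulators and receptors. They were chosen by function, with earlier results of these data known, as 24 coagulation genes and 18 complement genes out of 55341 annotated gene symbols. H3K27ac, a histone mark of active promoters and enhancers, was profiled by ChIP-seq in mouse primary hepatocytes (MPH). MPH from adult male C57Bl6 WT mice were kept in serum-free William's medium and exposed for 4 h to 1 µM thapsigargin or to vehicle, 0.04% DMSO. Thapsigargin blocks the calcium pump of the endoplasmic reticulum and induces endoplasmic reticulum stress (ERS). Each treatment had 3 H3K27ac libraries, from separate experiments, and 1 input library, 8 in all.

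The data analysed here are 3 lists of regions on mm10, in which the authors called each region H3K27ac UP, H3K27ac DOWN or unchanged after ERS. Changed regions passed an FDR of 0.05. Bins going up outnumbered bins going down by a ratio of at least 2 in UP regions, and that ratio was at most 0.5 in DOWN regions. The lists hold a position for each region and no value for any library, so that sequencing depth is unknown and no number below carries an error between replicates. A class gives the direction of the call, not its size, and in bulk chromatin a change in all cells and a change in some of them cannot be told apart. It belongs to the whole region, so that the part of a wide region that changed is not known. Of the 32196 regions, 17.1% were UP and 10.5% were DOWN. A gene was given the class of each region that held one of its transcription start sites (TSSs) in GENCODE M21, and 12261 genes had a TSS in a region.

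Hepatocytes make most of the circulating coagulation and complement proteins, which pass through the endoplasmic reticulum on their way into plasma. Coagulation is a cascade of serine proteases that ends with thrombin cutting fibrinogen into fibrin, which plasmin later dissolves. Complement is a related cascade in which the classical, lectin and alternative pathways meet at C3, and the terminal components then form a pore in the target membrane. Liver transcription of many of these genes depends on HNF1, HNF4, FOXA and C/EBP factors.

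Markers of the labelled cell type were present at the level of regions. A region lay at a TSS of 7 of 8 hepatocyte markers, all but Cyp2e1, and 4 of them were in DOWN and 0 in UP regions. Over all genes with a TSS in a region 8.91% were at DOWN and 21.4% at UP. The shares were 31.7% for DOWN and 28.5% for UP over the 1226 genes with the widest TSS regions (5530 to 37515 bp). The marker regions were wide as well, with a median of 8305 bp (3927 to 14886 bp). No TSS of the 9 Kupffer cell or macrophage markers, the 5 stellate cell markers or the 4 neutrophil markers lay in a region. Among the 6 markers of sinusoidal endothelium Stab2 had one, and among the 4 cholangiocyte markers Sox9 had one. The presence of a region is not an expression level.

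Most members had an active promoter mark. A TSS lay in a region for 39 of the 42 members, where the share was 44.7% over the 21924 protein-coding genes. Of these 39 genes, 8 had a TSS in a DOWN region (20.5%), 1 had a TSS in an UP region (2.56%) and 30 had unchanged regions alone (76.9%). Over all 12261 genes with a TSS in a region, 8.91% were at DOWN and 21.4% at UP regions. Among the coagulation genes 5 of 23 were at DOWN (21.7%), namely Fgb, F11, Cpb2, F12 and F13b, and 0 at UP. Among the complement genes 3 of 16 were at DOWN (18.8%), namely C3, Cfb and Mbl2, and 1 was at UP (6.25%), namely Masp1. The DOWN shares of both arms were thus close to each other and above that of all genes, and their UP shares were below it.

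**Figure D1:**
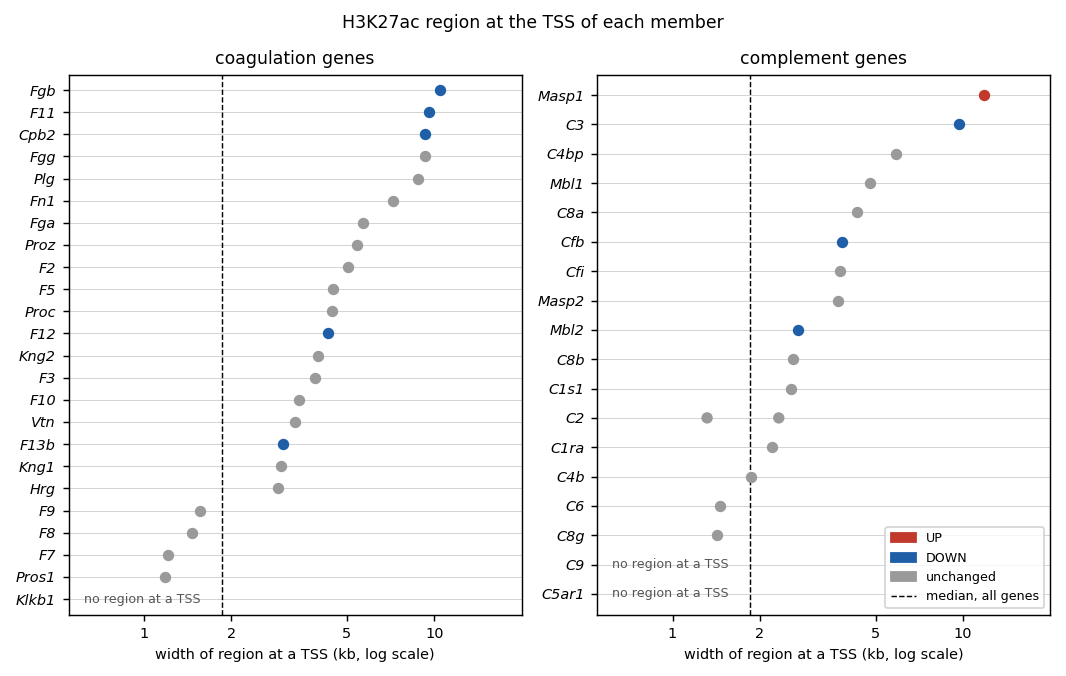
Each point is a region that holds a TSS of the gene on the vertical axis, and the horizontal axis is its width in kb on a log scale, with colours for the authors' class. The dashed line is the median of the widest region over all genes (1850 bp), and the 3 widest coagulation regions are DOWN, while the widest complement region is UP and the next DOWN.

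Promoter sequences are shown for the DOWN members found in the RefSeq promoter table, because their start sites lie in regions called H3K27ac DOWN. Each line gives the 250 bases upstream of the RefSeq start on GRCm38.p6, the assembly of mm10, read along the gene's strand from 5′ to 3′. Capitals mark matches to the liver and stress motifs described further on.
Fgb (chr3:83049864-83050113, minus strand): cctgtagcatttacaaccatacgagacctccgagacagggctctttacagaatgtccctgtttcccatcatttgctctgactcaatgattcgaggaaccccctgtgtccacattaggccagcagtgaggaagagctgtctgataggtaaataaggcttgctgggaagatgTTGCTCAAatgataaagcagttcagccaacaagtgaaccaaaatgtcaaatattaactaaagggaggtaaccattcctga
C3 (chr17:57228137-57228386, minus strand): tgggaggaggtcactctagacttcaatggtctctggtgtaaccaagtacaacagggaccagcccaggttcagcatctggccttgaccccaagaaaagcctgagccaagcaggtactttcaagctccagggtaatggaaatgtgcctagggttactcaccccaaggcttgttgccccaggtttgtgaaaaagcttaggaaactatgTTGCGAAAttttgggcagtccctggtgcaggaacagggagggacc
F11 (chr8:45262032-45262281, minus strand): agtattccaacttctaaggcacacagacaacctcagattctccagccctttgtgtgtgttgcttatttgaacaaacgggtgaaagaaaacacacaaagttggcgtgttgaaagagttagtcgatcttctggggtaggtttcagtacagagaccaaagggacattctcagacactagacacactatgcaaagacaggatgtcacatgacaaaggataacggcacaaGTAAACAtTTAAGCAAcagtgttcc
Cpb2 (chr14:75242037-75242286, plus strand): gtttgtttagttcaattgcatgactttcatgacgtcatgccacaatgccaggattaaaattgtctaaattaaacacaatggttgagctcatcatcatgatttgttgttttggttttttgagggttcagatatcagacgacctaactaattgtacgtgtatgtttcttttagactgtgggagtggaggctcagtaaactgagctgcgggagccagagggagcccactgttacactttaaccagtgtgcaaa
F12 (chr13:55426805-55427054, minus strand): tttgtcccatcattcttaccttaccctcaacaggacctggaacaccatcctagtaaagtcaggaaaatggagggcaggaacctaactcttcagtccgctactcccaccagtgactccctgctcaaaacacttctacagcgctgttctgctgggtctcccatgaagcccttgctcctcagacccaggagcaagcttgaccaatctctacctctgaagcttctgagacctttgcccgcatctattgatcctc
F13b (chr1:139501457-139501706, plus strand): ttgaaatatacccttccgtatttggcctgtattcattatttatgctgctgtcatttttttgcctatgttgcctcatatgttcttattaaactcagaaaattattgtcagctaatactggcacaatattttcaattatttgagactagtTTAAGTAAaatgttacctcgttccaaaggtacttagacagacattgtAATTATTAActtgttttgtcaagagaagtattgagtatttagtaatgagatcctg
Mbl2 (chr19:30232678-30232927, plus strand): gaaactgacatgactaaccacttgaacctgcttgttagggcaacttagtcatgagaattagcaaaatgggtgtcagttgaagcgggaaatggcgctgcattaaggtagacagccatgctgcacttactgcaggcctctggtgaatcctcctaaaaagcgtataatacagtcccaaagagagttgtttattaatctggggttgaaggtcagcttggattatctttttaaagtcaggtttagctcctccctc
All 7 of these start sites lay inside the DOWN region of their gene. Masp1 and Cfb, the other changed members, have no entry in the table, nor have Plg, Proc, Kng1, Fn1, C2, C4b and Cfi.

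The largest DOWN region among the members lay over Fgb, which encodes the beta chain of fibrinogen. It covered 10425 bp (chr3:83045592-83056016), of which 6153 bp were upstream of the gene's 5′ end, and it also held the TSS of the neighbouring protein-coding gene Plrg1, so that the call cannot be assigned to Fgb alone. Fga and Fgg encode the other two chains, and their genes lie beside Fgb. The region at the Fga TSS (chr3:83025080-83030737, 5658 bp) and the region at the Fgg TSS (chr3:83002519-83011819, 9301 bp) were unchanged. A further DOWN region of 4592 bp (chr3:83019509-83024100) held no TSS. It lay between Fgg and Fga and ended 1976 bp upstream of the nearest Fga start. The regions at the starts of the 3 fibrinogen genes therefore had different calls, and all 3 genes had both DOWN regions within 50 kb. F13b encodes the carrier subunit of factor XIII, which cross-links fibrin. A DOWN region of 3012 bp (chr1:139500792-139503803) held 1 of its 2 annotated TSSs.

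The contact pathway starts coagulation on negatively charged surfaces and releases bradykinin from kininogen. F11, for factor XI, had a DOWN region of 9571 bp (chr8:45260512-45270082), and 8051 bp of it lay upstream of the gene. F12, for factor XII, had a DOWN region of 4287 bp (chr13:55425761-55430047) with 3254 bp upstream. Klkb1, for plasma prekallikrein, lies upstream of F11 on the same strand and had no region at its TSS, although an unchanged region of 1419 bp started 47 bp away. The F11 DOWN region reached 3394 bp into the Klkb1 gene. An UP region of 6970 bp (chr8:45277415-45284384) lay wholly inside Klkb1, so that a DOWN and an UP region stood in the same gene. Kng1 and Kng2 encode kininogens, the cofactors of this pathway and the source of bradykinin. Their TSS regions of 2956 bp (chr16:23057793-23060748) and 3976 bp (chr16:23025594-23029569) were unchanged. A DOWN region of 3699 bp (chr16:23030413-23034111) lay 931 bp upstream of Kng2.

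**Figure D2:**
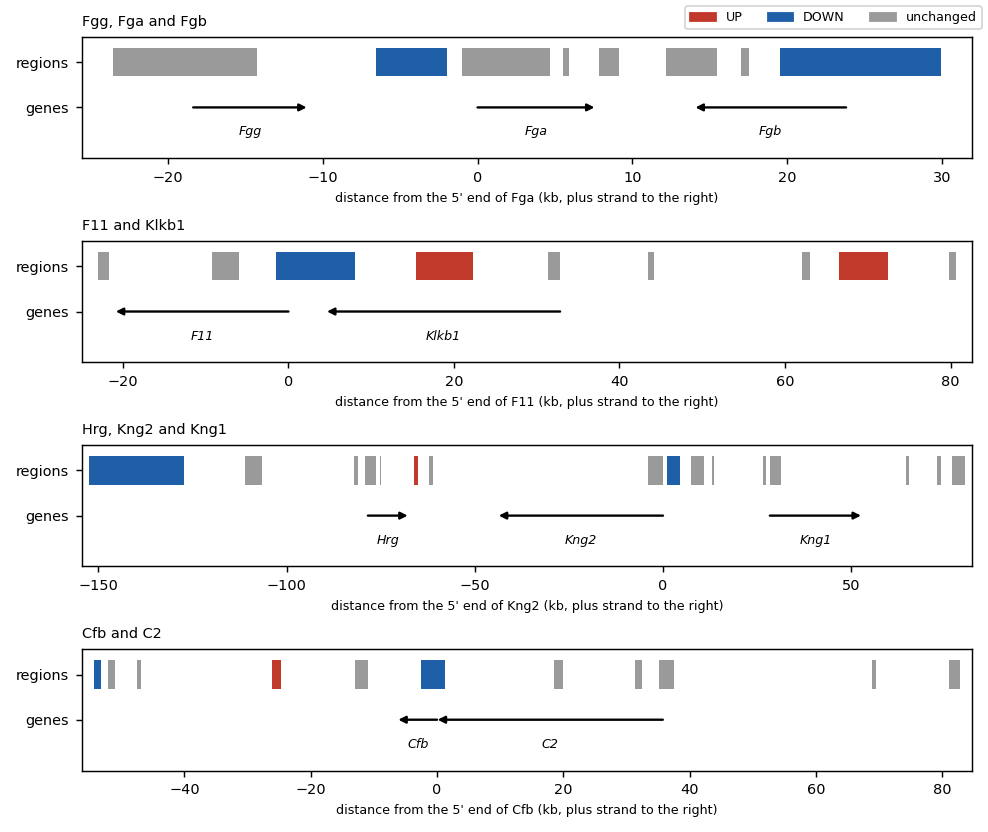
Regions (blocks, coloured by class) and genes (arrows in the direction of transcription) at 4 groups of neighbouring members, with distance in kb from the 5′ end of the gene named on each axis. The Fgb, F11 and Cfb starts lie under DOWN blocks, the Fga, Fgg, Kng2 and Kng1 starts under unchanged blocks, and an UP block of 6970 bp lies within Klkb1.

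Fibrinolysis dissolves the clot. Cpb2 encodes a carboxypeptidase that slows this process by trimming fibrin. Its DOWN region of 9320 bp (chr14:75241905-75251224) ran downstream from the promoter, with 8799 bp in introns and 382 bp upstream of the gene. Upstream of Cpb2 stood 2 UP regions without a TSS, of 1976 bp and 1729 bp, which lay 3094 bp and 8247 bp from its start. Plg encodes plasminogen, the precursor of plasmin. Its TSS region of 8813 bp was unchanged, and a DOWN region of 1818 bp lay 23707 bp downstream within the gene.

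The vitamin K-dependent proteins are the proteases and regulators whose glutamates are carboxylated in the endoplasmic reticulum. All 7 genes had unchanged regions at the TSS, namely F2 for prothrombin, F7, F9 and F10 for coagulation factors, Proc and Pros1 for proteins C and S, and Proz for protein Z. Their widths ran from 1182 bp at Pros1 to 5419 bp at Proz. From all genes with regions in the same deciles of width, 0.76 DOWN and 1.71 UP genes would have been awaited. None had a DOWN region within 50 kb, beside 31.9% of all genes with a TSS in a region. Proc, Pros1 and Proz each had 1 UP region in that window, and F2, F7, F9 and F10 had no changed region there. At least 1 UP region lay in the window of 53.0% of all genes with a TSS in a region. F7, F10 and Proz lie side by side, with unchanged regions at chr8:13025412-13026624 (1213 bp), chr8:13035978-13039390 (3413 bp) and chr8:13056453-13061871 (5419 bp). F9 stood alone, with 1 region in its window and the nearest changed region 6628456 bp away.

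The 3 cofactor and receptor genes were unchanged at the TSS as well, where widths gave 0.41 DOWN and 0.78 UP genes. They are F3 for tissue factor, which starts coagulation on cells, and F5 and F8 for the cofactors of factor X and factor IX. The regions measured 3886 bp at F3, 4486 bp at F5 and 1458 bp at F8. The F8 region also held the TSS of Fundc2, so that the mark there cannot be assigned to F8. F3 had a DOWN region of 1942 bp that began 6011 bp from its nearest start. The glycoproteins Hrg, which binds heparin and plasminogen, Vtn for vitronectin and Fn1 for fibronectin also had unchanged TSS regions, of 2898, 3310 and 7213 bp. Widths gave 0.55 DOWN and 0.8 UP genes there. A DOWN region of 25256 bp over Ahsg came within 48816 bp of Hrg.

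C3, the protein on which all complement pathways meet, had a DOWN region of 9663 bp (chr17:57225859-57235521). It held 2 of the 4 annotated C3 TSSs and extended 7385 bp upstream of the gene. Near the 3′ end of C3 stood 2 UP regions, of 4041 bp and 838 bp, neither of them at a TSS. Cfb encodes factor B, the protease of the alternative pathway. A DOWN region of 3829 bp (chr17:34859905-34863733) held 4 of its 8 annotated TSSs. C2, the classical homologue of factor B, lies directly upstream of Cfb. Its unchanged regions, at chr17:34881085-34882399 (1315 bp) and chr17:34897712-34900032 (2321 bp), also held TSSs of Gm20547 and of Ehmt2. The start of a C2 transcript lay 679 bp from the Cfb DOWN region.

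The lectin pathway recognises sugars on microbes through mannose-binding lectins, which carry the Masp proteases. Mbl2 had a DOWN region of 2697 bp (chr19:30232497-30235193) and a further DOWN region of 2734 bp, 8413 bp upstream. The region at Mbl1, for the other mannose-binding lectin, was unchanged at 4797 bp, and 2 DOWN regions of 3600 bp and 1824 bp lay downstream of its start. Masp1 was the only member with a TSS in an UP region. That region covered 11816 bp (chr16:23509756-23521571), the widest at any member, held 4 of 4 Masp1 TSSs and lay mostly in Masp1 introns (10543 bp). It also held TSSs of Rtp4, Gm45338 and Gm49514, so that the call cannot be assigned to Masp1 alone. The region at Masp2, for the second protease of the pathway, was unchanged at 3708 bp, with an UP region at the TSS of Srm 9768 bp from its nearest start.

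The members of the classical pathway, the terminal pathway and the regulators had no TSS in a changed region. From all genes of like region width, 0.29, 0.34 and 0.5 DOWN genes would have been awaited, so that DOWN counts of 0 lie near the background. The UP sums were 1.0, 0.94 and 0.58, beside 0 observed in each of these roles. C1ra and C1s1 encode proteases of the first component and lie on opposite strands, with unchanged regions of 2198 bp (chr6:124511217-124513414) and 2562 bp (chr6:124540351-124542912). C4b, for the fourth component, had an unchanged region of 1861 bp (chr17:34742838-34744698). The terminal genes C6, C8a, C8b and C8g had unchanged regions of 1458, 4326, 2591 and 1423 bp, and the C8g region was shared with Fbxw5. The regions of C8a (chr4:104872179-104876504) and C8b (chr4:104766050-104768640) flanked a DOWN region of 5751 bp (chr4:104821572-104827322) that lay inside C8a. C9, for the pore-forming terminal component, had no region at a TSS, but an unchanged region of 4492 bp lay 99 bp away. Cfi, for the protease that inactivates C3 and C4 fragments, and C4bp, for its cofactor, had unchanged regions of 3770 bp and 5884 bp. Cfi also had a DOWN region of 1916 bp inside the gene and an UP region of 2502 bp at the TSS of Gar1, 4183 bp upstream. C5ar1, for a complement receptor of myeloid cells, had no region closer than 13363 bp.

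The width of a region was related to its class over all genes, which bears on every count above. The DOWN share rose from 1.3% in the decile of narrowest TSS regions to 31.7% in the decile of widest ones, and the UP share from 9.28% to 28.5%. Wide regions contain more of the 150 bp bins that the authors tested. The widest region at a TSS had a median of 4287 bp over the coagulation genes (1182 to 10425 bp), 3202.5 bp over the complement genes (1423 to 11816 bp) and 1850 bp over all genes. Of the 23 coagulation genes 19 lay in the top 3 deciles, and of the 16 complement genes 8 did.

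**Figure D3:**
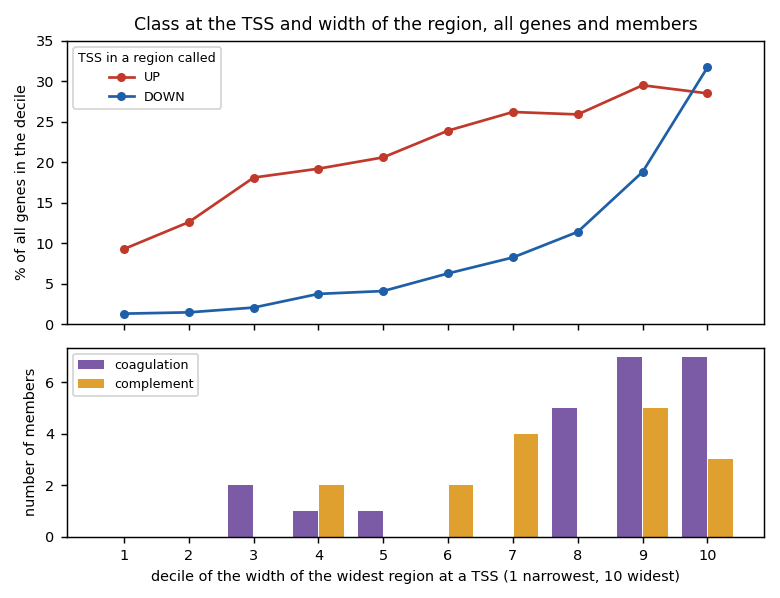
The upper panel gives the percentage of all genes in each decile of TSS region width that had a TSS in an UP or a DOWN region, and the lower panel the number of coagulation and complement members per decile. DOWN reaches 31.7% in the widest decile, where 7 coagulation and 3 complement genes lie.

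The shares of all genes in the same width deciles were therefore summed over the members. This sum was 4.23 DOWN genes for coagulation (18.4%), beside 5 observed, and 2.42 for complement (15.1%), beside 3 observed. The DOWN counts thus lay within 1 gene of those of all genes with regions of like width. For UP the sum was 6.11 for coagulation (26.6%), beside 0 observed, and 4.24 for complement (26.5%), beside 1 observed. By role, the DOWN sum was 0.81 for the contact pathway, 1.07 for fibrin formation, 0.63 for fibrinolysis, 0.5 for C3 with the alternative pathway and 0.77 for the lectin pathway, beside 2, 2, 1, 2 and 1 observed. Over all members the sum was 10.35 for UP and 6.64 for DOWN, beside 1 and 8. Genes with a TSS in an UP region were thus fewer in both arms than the widths gave. The 7 hepatocyte markers with a TSS region had 0 at UP as well. A low UP count was thus not particular to these arms. These counts are descriptions, and no test was made of them.

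**Figure D4:**
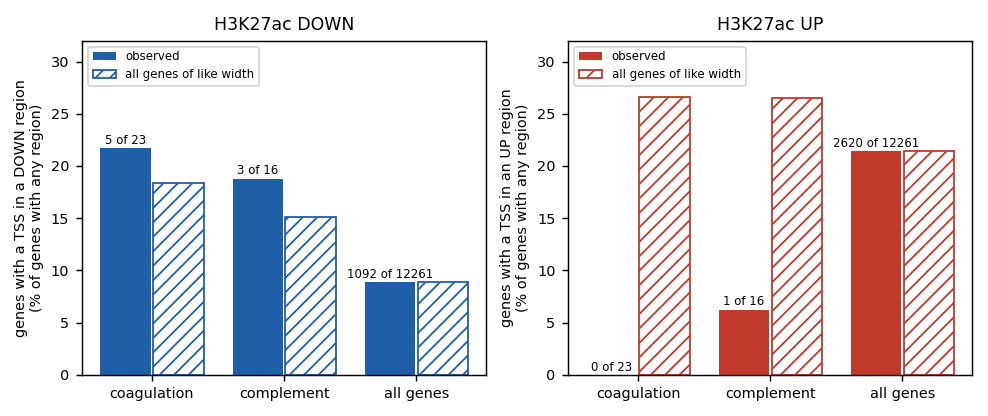
Filled bars are the percentage of genes with any TSS region that had a TSS in a DOWN (left) or UP (right) region, with counts above, and hatched bars the percentage over all genes in the same deciles of region width. DOWN bars of both arms stand near their hatched bars, and the UP bars stand at 0 of 23 and 1 of 16 beside hatched bars of 26.6% and 26.5%.

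Within the members, DOWN regions were also wider than unchanged ones. In coagulation the median was 9320 bp at the 5 DOWN genes (3012 to 10425 bp) and 3931 bp at the 18 unchanged genes (1182 to 9301 bp). In complement it was 3829 bp at the 3 DOWN genes (2697 to 9663 bp) and 2576.5 bp at the 12 unchanged genes (1423 to 5884 bp). The ranges overlapped in both arms. Fgg and Plg, with unchanged regions of 9301 and 8813 bp, were nearly as wide as Cpb2, F11 and Fgb.

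Within 50 kb of a member TSS lay 171 distinct regions, 85 near coagulation and 86 near complement genes. Near coagulation genes 11 were UP and 11 DOWN (12.9% each), and near complement genes 10 were UP and 10 DOWN (11.6% each), beside 17.1% and 10.5% over all regions. When the regions at member TSSs were left out, 11 of 62 were UP and 6 DOWN near coagulation genes (17.7% and 9.68%), and 9 of 69 UP and 7 DOWN near complement genes (13% and 10.1%). The regions left out at coagulation genes included no UP region, which raises the UP share of the rest, and the shares over all regions were not reduced in this way. In base pairs, 29.0% of the sequence in regions near coagulation genes was DOWN and 13.6% UP, and 19.7% and 14.5% near complement genes, beside 18% and 21.2% over all regions. The DOWN base pairs near coagulation genes include the full 25256 bp of the region over Ahsg. That region lay 48816 bp from the nearest Hrg start, so that much of this share comes from the domain of a neighbouring gene.

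Counted by gene, at least 1 DOWN region lay within 50 kb of 21 of the 39 members with a TSS region (53.8%), beside 31.9% of all genes. At least 1 UP region lay within 50 kb of 16 of them (41.0%), beside 53.0% of all genes. The count was 13 of 23 for DOWN and 9 of 23 for UP in coagulation, and 8 of 16 and 7 of 16 in complement. Neighbouring members share regions in these counts, as the 3 fibrinogen genes do. The windows include the TSS regions, so that the 8 members with a TSS in a DOWN region are among the 21. No allowance for width was made in these window counts. Neither class lay within 50 kb of 12 of the 39 members with a TSS region (30.8%), beside 31.4% of all genes. With C9, which has no TSS region, these 13 members were F2, F5, F7, F8, F9, F10, C1ra, C1s1, C4b, C6, C8g, C9 and C4bp.

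**Figure D5:**
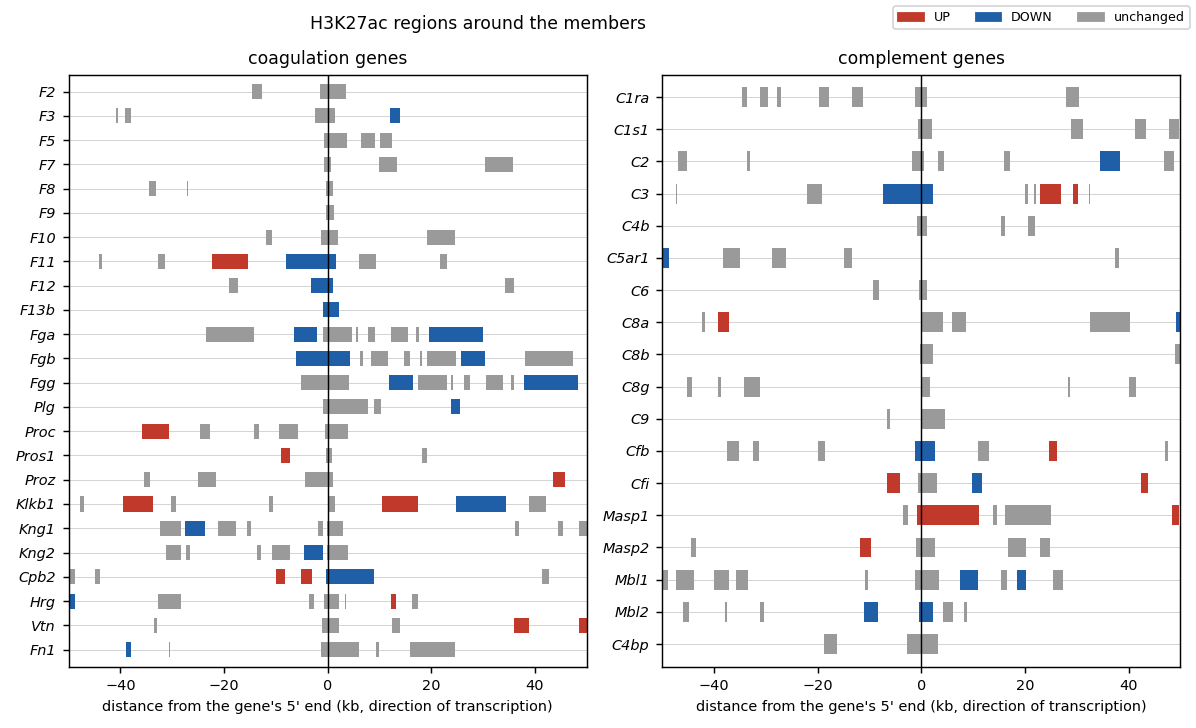
Regions around each member, coloured by class, by distance in kb from the gene's 5′ end, with downstream to the right. Regions are those within 50 kb of any TSS of the gene, drawn where they fall on the axis, and DOWN blocks cross the zero line at 8 genes while an UP block crosses it only at Masp1.

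The upstream sequences were read for short motifs. Of the 42 members, 33 had a promoter in the RefSeq table, which holds 32851 promoters of 300 bases, 250 before and 50 after the start. Letters were searched on both strands, with N for any base. The C/EBP motif TTGCNNAA was in a promoter of 12 of the 33 members, beside 10.8% of all promoters. A member counts if any of its promoters matches, and C1s1 and C8g have an extra entry, while shares over all promoters are per entry. The C/EBP letters were in 4 of the 7 DOWN members with an entry, namely Fgb, C3, F11 and Cpb2, and in 6 of the 23 unchanged ones. These counts are small, and their difference was not tested. The C/EBP match began 80 bases before the start in Fgb, 45 in C3 and 17 in F11. In Cpb2 it lay after the start, outside the printed bases. The HNF4 motif CAAAGNNCA was in C1s1, C8g, F7, F9, Fga and Kng2 (6.36% of all promoters). All 6 had unchanged regions, and 0 of the 7 DOWN members had the motif. At a share of 6.36%, a count of 0 among 7 promoters lies near the background, so that it does not set DOWN members apart from all promoters. The difference from 6 of 23 unchanged members was not tested. The HNF1 motif TTAATNATT was in C4bp, F13b and F8 (1.47%), and the FOXA motif, TGTTTAC or TGTTTGC, was in C1s1, C8b, F11, Klkb1 and Kng2 (8.48%). In the printed F11 sequence, a FOXA match ends 1 base before the C/EBP match.

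F13b also held the D-box TTANGTAA, read by NFIL3 and the PAR-bZIP factors (2.32% of all promoters), and it was the only member with it. The counts of stress motifs were low in the members and over all promoters alike. The ATF4-C/EBP motif TGATGNAA was in Proz alone (3.97%). The XBP1 and ATF6 motif TGACGTGG was in 0 of 33 (0.676%), and so was the ER stress element, CCAAT and CCACG at a gap of 9 bases (0.119%). Some motifs can overlap, since TGTTTGC ends as TTGCNNAA begins, and TGACGTGG read on the other strand begins with CCACG. A match here is a match of letters and was not tested for binding.

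Other genes of these pathways, 51 in number, were counted in the same way. A TSS region was present at 27, of which 6 lay in DOWN (22.2%), 5 in UP (18.5%) and 16 in unchanged regions alone. Their width gave an awaited count of 3.56 for DOWN and 6.31 for UP. Among the UP genes were Lman1 and Mcfd2, the receptor pair that carries factors V and VIII out of the endoplasmic reticulum (7554 and 3580 bp), and the complement regulators Cd46 and Cr1l (676 and 1824 bp). DOWN genes were Serpinf2, the plasmin inhibitor (6874 bp), Hc, complement C5 (5807 bp), Clu, clusterin (5070 bp), Cfhr2, related to factor H (4201 bp), F2rl1, a protease-activated receptor (1809 bp), and Serpina5, the protein C inhibitor (339 bp). TSSs in UP regions were thus seen at genes of the same pathways outside the 42.

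The study's LIVER-ID genes, defined by broad liver-specific H3K4me3 domains, included 9 coagulation members (F2, F5, Fga, Fgb, Fgg, Plg, Proc, Vtn and Fn1) and 1 complement member (Masp1). Of the 9 coagulation members 1 was at DOWN (Fgb), beside 4 of the 14 other coagulation genes with a TSS region. Masp1 was at UP, and the 3 complement genes at DOWN were outside the list. Over all genes with a TSS in a region 8.91% were at DOWN. These few counts make no allowance for width and were not tested, and shares over all LIVER-ID genes are not given here.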

How the data were processed

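The authors aligned reads to mm10, removed duplicates and blacklisted regions, called broad peaks with MACS2 on pooled libraries, tested 150 bp bins against the paired vehicle libraries with csaw 1.6.1 after loess normalization, and combined bins per peak. The deposited lists hold start and end positions in base pairs and no counts, so that depth and precision per library are unknown and no test between libraries was made. All columns were used as the authors' pooled result of 3 H3K27ac libraries per treatment.

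Members and lists were chosen with earlier results of these data known, so that counts are descriptions without p-values. All 42 members are named, with positions for changed members and gene clusters. TSSs of 141767 transcripts (GENCODE M21) were intersected with the regions, and windows were 50 kb on each side of any TSS. Awaited counts sum, over members, the share of all genes in the same of 10 width bins. The values of 1 other pathway gene are not reported here. Promoters are from the RefSeq table on GRCm38.p6. The counting functions were tested on simulated data. Alternatives were other TSS distances, TSS sets, width minimums, bins and windows. Python 3.11.15, numpy 2.4.6, pandas 2.3.3 and matplotlib 3.10.9 were used.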

Additional observations from a re-analysis of the deposited data

How the results depend on the processing

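Of 84 alternative values for 14 results, 68 stayed within 1.5 times the count or within the counting interval of the share, and 16 moved. A TSS within 10 kb of a region gave 8 DOWN and 2 UP coagulation genes, 6 DOWN and 3 UP complement genes, and 14.1% DOWN and 26.9% UP over all genes. The DOWN share of all genes was 7.85% with the 5′ gene start only, 7.66% with protein-coding transcripts, 8.31% with protein-coding genes, 10.6% with regions of at least 1 kb and 11.9% where a region had to extend 500 bp to both sides of the TSS. The UP share was 23.7% with regions of at least 1 kb, 24.3% with the 500 bp cover and 20.4% with each gene counted once by its widest region. Near coagulation genes, DOWN made 29.0% of base pairs, and UP made 6.82% of regions within 10 kb. The 500 bp cover left Cpb2 and Mbl2 without a region. The cause of these moves was not tested. No paired analysis was possible because the lists hold no values per library, which also means that no replicate could be left out. The lists limit every statement to the presence and class of a region: its level, the size of its change and the spread between experiments are not analysed here.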
